A study of Mus musculus with 12 samples.

Results

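The Toll-like receptor (TLR) genes were followed through poly(A) RNA-seq of the mouse macrophage line RAW264.7, with and without siRNA against the splicing factor SF3a1 and with and without lipopolysaccharide (LPS). The 9 members (Tlr1, Tlr2, Tlr3, Tlr4, Tlr6, Tlr7, Tlr8, Tlr9 and Tlr13) were taken by gene symbol from the 38215 genes of the count table, with their 63 exon bins of 354841 in all. An exon bin is a stretch of exon that is shared by the same set of annotated transcripts. The rule itself uses no measured value, but the family was picked with earlier results of these data known. All 9 passed the filter on low counts, which 14983 genes passed.

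All 12 libraries came from RAW264.7 cells, a macrophage-like line of BALB/c origin. The cells were nucleofected with siRNA pools 24 h before the LPS step, and every group carried an siRNA. The control siRNA without LPS group and the control siRNA with LPS group received a nontargeting pool, and the SF3a1 siRNA without LPS group and the SF3a1 siRNA with LPS group received a pool against SF3a1. LPS was given at 20 ng/ml for 4 h. Each group held 3 replicates, which per the methods had their own siRNA treatment and LPS exposure. The sources used here do not say whether the replicates came from separate passages or days, so p-values measure the spread between these 3 treatments of the line. Gene counts summed to between 12746019 and 41091887 per library. SF3a1 is a subunit of the U2 snRNP, which recognises the branch site during pre-mRNA splicing. Sf3a1 mRNA fell from 191 ± 22.2 to 28.9 ± 2.78 CPM (counts scaled to a common library size, after edgeR's TMM normalisation) without LPS and from 167 ± 23.9 to 34.02 ± 9.72 CPM with LPS (SD, n = 3), which is 15.1% and 20.3% of the control level, so the knockdown was partial.

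TLRs are membrane receptors that bind microbial molecules through leucine-rich repeats and signal through a cytoplasmic TIR domain. TLR2 pairs with TLR1 or TLR6 at the cell surface to bind bacterial lipopeptides, and TLR4 binds LPS there with its co-receptor MD-2. TLR3, TLR7, TLR8, TLR9 and TLR13 sit in endosomes, where they meet double-stranded RNA, single-stranded RNA, CpG DNA and bacterial ribosomal RNA. In macrophages, TLR signaling induces cytokines and interferon, and several receptor genes are themselves known targets of interferon and NF-κB.

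The genes lie at 6 places in mm10 other than that of Tlr4, which is described with its exons. Tlr1 (chr5:64924679-64933563) and Tlr6 (chr5:64952031-64960097) are neighbours on the minus strand of chromosome 5. Tlr8 (chrX:167242696-167264329) and Tlr7 (chrX:167304929-167330558) are neighbours on the minus strand of the X chromosome, and Tlr13 (chrX:106143204-106160493) lies apart from them on the plus strand. Tlr2 is at chr3:83836272-83841767 and Tlr3 at chr8:45395665-45411080, both on the minus strand, and Tlr9 is at chr9:106222598-106226883 on the plus strand.

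The libraries carried markers of the labelled cell type. All 8 macrophage markers were above the filter, with Lyz2 the most abundant (5430 ± 611 CPM in control cells without LPS) and the summed level of the list between 9327 and 14347 CPM in every library. However, Mrc1 was near 0, with 12, 4 and 0 counts (0.151 ± 0.140 CPM) in control cells without LPS and below 1 CPM in every library. Markers of B cells, T cells, fibroblasts and epithelial cells were at or near 0: Cd8a had no count in any library, and the summed level of 4 markers each for B cells, T cells, fibroblasts and epithelial cells stayed below 1 CPM in every library. Of the 8 macrophage markers, 5 rose and 1 fell with LPS in control cells, 2 rose with SF3a1 siRNA without LPS, and 2 rose and 2 fell with SF3a1 siRNA after LPS, where 32.1%, 33.8% and 38.8% of all tested genes passed. Among them Fcgr1, an Fc receptor gene, had log2 changes of 2.83 with LPS in control cells and -3.20 with SF3a1 siRNA after LPS (edgeR adjusted p = 1.5e-06 and 6.1e-06). The dendritic cell list (Flt3, Zbtb46, Xcr1, Siglech) summed to means of 2.90, 2.20, 2.11 and 2.36 CPM in the 4 groups in the order given above. Of its 4 genes 3 were above the filter. Zbtb46 was the most abundant in control cells without LPS (1.76 ± 0.405 CPM) and Xcr1 in control cells with LPS (mean 1.13 CPM). Of the 3 tested, 1 rose and 2 fell with LPS in control cells, with log2 changes from -3.00 to 4.56. With SF3a1 siRNA 1 fell without LPS, and 1 rose and 1 fell after LPS. The shares of all tested genes that passed are those given above. The neutrophil list, led by S100a8, summed to 0.187, 0.452, 0.346 and 0.646 CPM. The LPS response was present. Tnf went from 35.4 ± 5.61 to 1449 ± 675 CPM and Nos2, the inducible nitric oxide synthase, from 0.103 ± 0.0510 to 343 ± 19.2 CPM in control cells. In SF3a1 siRNA cells with LPS they reached 905 ± 484 and 44.0 ± 4.07 CPM.

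Technical measures moved with the siRNA and with LPS. The share of uniquely mapped reads that fell outside annotated exons was between 17.8% and 19.6% in control cells without LPS and between 20.8% and 27.2% in SF3a1 siRNA cells without LPS. With LPS it was between 17.8% and 19.8% in control cells and between 18.2% and 21.4% in SF3a1 siRNA cells. The share of reads that could not be assigned to a single gene was between 0.507% and 0.509% in control cells and between 0.431% and 0.479% in SF3a1 siRNA cells without LPS, and the TMM factors were between 1.07 and 1.10 against between 0.987 and 1.06. With LPS both measures overlapped between the siRNA groups. The TMM factors with LPS were between 0.925 and 0.967 in control cells and between 0.905 and 0.964 in SF3a1 siRNA cells. Both ranges lay below those of the same siRNA without LPS. The part of these measures in the results was not tested.

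To compare the receptors with each other, CPM was divided by the length of each gene's annotated exons. In control cells without LPS the order was Tlr2, Tlr7, Tlr13, Tlr4, Tlr9, Tlr1, Tlr6, Tlr3 and Tlr8. Tlr2 stood at 148 ± 5.04 CPM per kb (SD, n = 3) and Tlr8 at 0.228 ± 0.136, a ratio of mean levels of 648. Tlr2 alone made up 70.6 ± 1.44% of the summed per-length level of the 9 genes. Tlr7, a receptor for single-stranded RNA, followed with 29.6 to 32.6 CPM per kb in its 3 libraries. Tlr13, which binds bacterial 23S ribosomal RNA, and Tlr4, the LPS receptor, were next at 10.0 ± 0.804 and 9.12 ± 1.30 CPM per kb. Of the neighbours in this order, Tlr13 overlapped Tlr4 between libraries and Tlr9 overlapped Tlr1, and the other 6 neighbouring pairs did not overlap. The remaining mouse family genes Tlr5, Tlr11 and Tlr12 had between 0 and 2 counts in every library and were not tested.

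**Figure D1:**
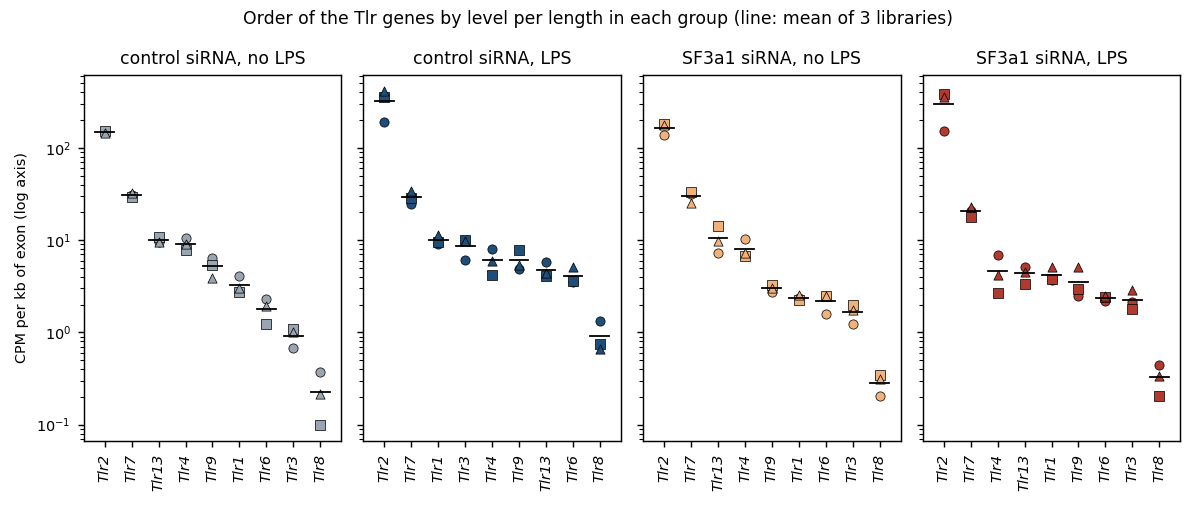
Level per length of the 9 Tlr genes in each group, in order of the group mean. The y axis is CPM per kb of exon on a log scale, each point is a library (symbols mark the replicate number as in the plot of CPM by group) and each line is the mean of 3 libraries. Tlr2 and Tlr7 led and Tlr8 was last in all 4 groups, while Tlr3 went from rank 8 without LPS to rank 4 with LPS in control cells.

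The order changed most in control cells with LPS, where Tlr1 and Tlr3 took ranks 3 and 4 at 9.92 ± 1.18 and 8.65 ± 2.21 CPM per kb. In that group 5 neighbouring pairs overlapped, namely every step from Tlr1 down to Tlr6. In SF3a1 siRNA cells without LPS the order of the genes was that of the control cells without LPS. In SF3a1 siRNA cells with LPS, Tlr3 stood at rank 8 again at 2.26 ± 0.541 CPM per kb. There the overlapping neighbours were Tlr4 and Tlr13, Tlr13 and Tlr1, Tlr1 and Tlr9, and Tlr6 and Tlr3.

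**Figure D2:**
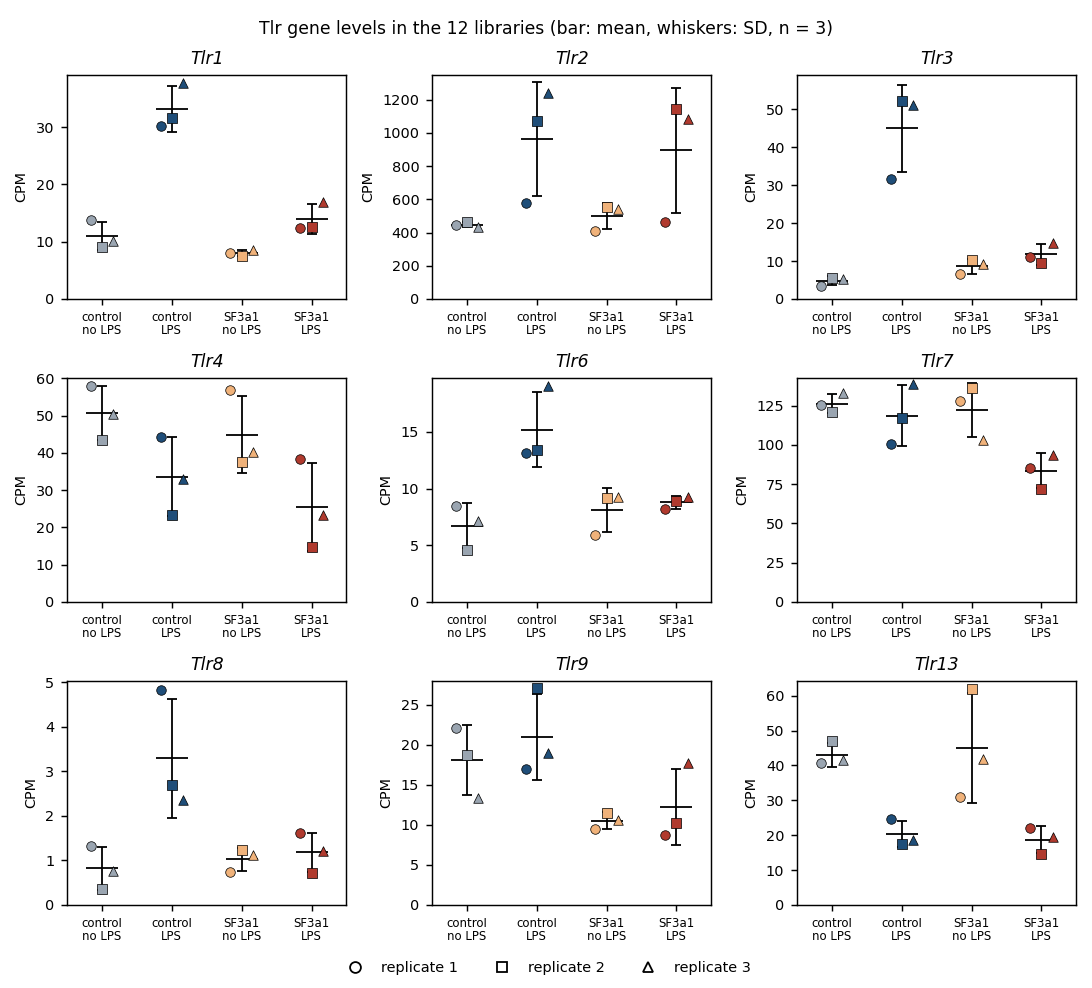
CPM of each Tlr gene in the 12 libraries. Each panel is a gene, the x axis gives the group, the y axis is CPM from 0, symbols mark the replicate number, the horizontal bar is the mean and the whiskers are the SD of 3 libraries. The 3 control LPS libraries of Tlr3 lie between 31.8 and 52.2 CPM, above every library of the other groups, and replicate 1 lies apart from the others for Tlr2 with LPS.

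The first comparison asked how LPS changed the receptor genes in cells with control siRNA. Of the 9 genes, 5 rose (Tlr1, Tlr2, Tlr3, Tlr6 and Tlr8) and 1 fell (Tlr13) at an edgeR adjusted p of 0.1 or less, and Tlr4, Tlr7 and Tlr9 did not pass. This and the counts for the later comparisons come from the fit without a replicate term. With the replicate number as a block, Tlr4 was called lower here as well. Across all tested genes 32.1% passed, 13.8% higher and 18.3% lower. The median log2 fold change was 1.11 over the 9 genes and -0.02 over all genes tested. In bulk RNA, fewer cells expressing a gene and less RNA per cell cannot be told apart.

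Among the surface receptors, Tlr1 had 13.7, 9.16 and 10.2 CPM without LPS and 30.3, 31.6 and 37.7 CPM with LPS in replicates 1, 2 and 3. The groups did not overlap, and the log2 fold change was 1.59 ± 0.20 (SE, edgeR adjusted p = 6.7e-05). Tlr6, which lies next to Tlr1 on chromosome 5 and shares its pairing partner TLR2, had 8.48, 4.56 and 7.15 CPM without LPS and 13.1, 13.4 and 19.1 CPM with LPS (log2 fold change 1.17 ± 0.26, edgeR adjusted p = 0.0050). The annotated transcripts of Tlr1 and Tlr6 share 13.6% of the 50-base words of Tlr1, and a read lying wholly in those stretches could not be placed uniquely, which the counting required. No other pair of the 9 genes shared any 50-base word.

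Tlr2, the common partner of both, had 443, 462 and 432 CPM without LPS and 579, 1071 and 1241 CPM with LPS. All 3 LPS libraries were above all 3 without LPS, but replicate 1 rose by a factor of 1.31 and replicates 2 and 3 by factors of 2.32 and 2.87. The log2 fold change was 1.11 ± 0.32 (edgeR adjusted p = 0.022). Tlr4 had 58.0, 43.6 and 50.4 CPM without LPS and 44.4, 23.2 and 33.1 CPM with LPS. Each replicate was lower with LPS, and the groups overlapped at replicate 1. The log2 difference was -0.59 ± 0.31 (edgeR adjusted p = 0.21) and -0.64 with the replicate number as a block (adjusted p = 0.0069), so Tlr4 was called lower only when replicates of the same number were paired, when library totals alone, no expression filter or no replicate 1 libraries were used, or without replicate 1 of the control LPS group (-0.85, adjusted p = 0.094).

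Among the endosomal receptors, Tlr3, which binds double-stranded RNA, had the largest change of the family. It had 3.48, 5.63 and 5.24 CPM without LPS and 31.8, 52.2 and 51.1 CPM with LPS. The ratio was 9.11, 9.28 and 9.76 in replicates 1, 2 and 3, and the log2 fold change was 3.24 ± 0.29 (edgeR adjusted p = 3.9e-06). Tlr8, which is next to Tlr7 on the X chromosome, was the least abundant member. Its counts were 58, 8 and 18 without LPS and 183, 34 and 42 with LPS, which is 1.33, 0.357 and 0.766 CPM against 4.82, 2.70 and 2.36 CPM. The groups did not overlap (log2 fold change 1.98 ± 0.48, edgeR adjusted p = 0.0077).

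Tlr13 was the only member that fell in the fit without the block, from 40.6, 47.0 and 41.5 CPM to 24.7, 17.6 and 18.7 CPM (log2 fold change -1.08 ± 0.25, edgeR adjusted p = 0.0055). Tlr7 had 126 ± 6.12 CPM without LPS and 119 ± 19.2 CPM with LPS (log2 difference -0.09 ± 0.16). Tlr9, the receptor for CpG DNA, had 18.1 ± 4.39 and 21.0 ± 5.33 CPM (0.21 ± 0.28), and replicate 1 was lower and replicates 2 and 3 were higher with LPS. Both genes overlapped between the groups.

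The next comparison asked what SF3a1 siRNA did to the family before LPS. Of the 9 genes, Tlr3 rose and Tlr9 fell, and the other 7 did not pass, where 33.8% of all tested genes passed (13.7% higher, 20.1% lower). Tlr3 had 6.49, 10.3 and 9.15 CPM in SF3a1 siRNA cells, above all 3 control libraries, and the ratio of each replicate to its control was 1.86, 1.83 and 1.75 (log2 fold change 0.86 ± 0.28, edgeR adjusted p = 0.036). Without replicate 2 of the SF3a1 siRNA group the adjusted p was 0.13. Tlr9 had 22.1, 18.8 and 13.4 CPM in control cells and 9.48, 11.5 and 10.64 CPM in SF3a1 siRNA cells (log2 fold change -0.78 ± 0.28, edgeR adjusted p = 0.059). The groups did not overlap, but the call was lost without any of 5 of these libraries. The edgeR adjusted p was 0.26 or 0.18 without control replicate 1 or 2, and 0.15, 0.11 or 0.13 without SF3a1 siRNA replicate 1, 2 or 3.

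Tlr1 was just outside the threshold. It had 7.95, 7.52 and 8.48 CPM with SF3a1 siRNA, below each control library, with a log2 difference of -0.47 ± 0.20 (edgeR adjusted p = 0.10084). In edgeR the adjusted p was 0.048 with the replicate block, 0.066 with library totals alone, 0.094 with a filter of at least 1 CPM in 3 libraries, and 0.096 or 0.088 without replicate 1 of the control LPS group or replicate 3 of the SF3a1 siRNA LPS group. Tlr2, Tlr4, Tlr6, Tlr7, Tlr8 and Tlr13 overlapped between the siRNA groups without LPS, with log2 differences between -0.17 (Tlr4) and 0.26 (Tlr8). The Tlr8 value ran from 0.0026 to 0.93 with a library left out and reached 1.05 under the other settings, without passing in any.

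The same comparison was made after LPS. Of the 9 genes, 6 were lower with SF3a1 siRNA than with control siRNA (Tlr1, Tlr3, Tlr6, Tlr7, Tlr8 and Tlr9), and Tlr2, Tlr4 and Tlr13 did not pass. Of all tested genes 38.8% passed, 18.4% higher and 20.4% lower. The median log2 fold change was -0.78 over the 9 genes and -0.04 over all genes tested. This comparison and that of LPS with control siRNA share the 3 control LPS libraries.

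Tlr3 had 11.1, 9.37 and 14.9 CPM in SF3a1 siRNA cells with LPS, which is 26.1% of the control LPS mean (log2 fold change -1.93 ± 0.27, edgeR adjusted p = 0.00026). Tlr1 had 12.4, 12.6 and 16.9 CPM, 42.0% of the control LPS mean (-1.25 ± 0.20, edgeR adjusted p = 0.00052). The ratio of SF3a1 siRNA to control siRNA for Tlr1 was 0.409, 0.398 and 0.448 in replicates 1, 2 and 3. For neither gene did the groups overlap.

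Tlr8 had counts of 53, 12 and 25, or 1.605, 0.725 and 1.20 CPM, 35.8% of the control LPS mean (-1.47 ± 0.47, edgeR adjusted p = 0.031), and the adjusted p was 0.13 without replicate 1 of the control LPS group. Tlr6 had 8.18, 8.95 and 9.24 CPM (-0.79 ± 0.26, edgeR adjusted p = 0.036), with 0.14 when replicate 3 of the control LPS group was left out. In both genes the SF3a1 siRNA libraries were all below the control LPS libraries.

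Tlr7 had 100, 117 and 139 CPM with control siRNA and 85.2, 71.8 and 93.6 CPM with SF3a1 siRNA (-0.51 ± 0.16, edgeR adjusted p = 0.030). The groups were apart, and the adjusted p was 0.12 without replicate 3 of the control LPS group and 0.12 when only these 6 libraries were fitted. Tlr9 had 17.0, 27.02 and 18.9 CPM with control siRNA and 8.69, 10.3 and 17.7 CPM with SF3a1 siRNA (-0.78 ± 0.28, edgeR adjusted p = 0.054). Its groups overlapped at SF3a1 siRNA replicate 3, and the adjusted p was 0.21 without control LPS replicate 2, 0.18 without SF3a1 siRNA replicate 1, 0.15 without SF3a1 siRNA replicate 2 and 0.13 in a fit of these 6 libraries alone.

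Tlr2, Tlr4 and Tlr13 did not pass. Tlr2 had 461, 1143 and 1083 CPM in SF3a1 siRNA cells with LPS against 579, 1071 and 1241 CPM in control cells, a log2 difference of -0.11 ± 0.32. Tlr13 differed by -0.12 ± 0.24. Tlr4 had 38.2, 14.8 and 23.3 CPM against 44.4, 23.2 and 33.1 CPM, lower in 3 of 3 replicates (-0.40 ± 0.32, edgeR adjusted p = 0.38). With the replicate block the value for Tlr4 was -0.43 and the adjusted p 0.045, and without replicate 1 of the SF3a1 siRNA LPS group they were -0.82 and 0.062.

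**Figure D3:**
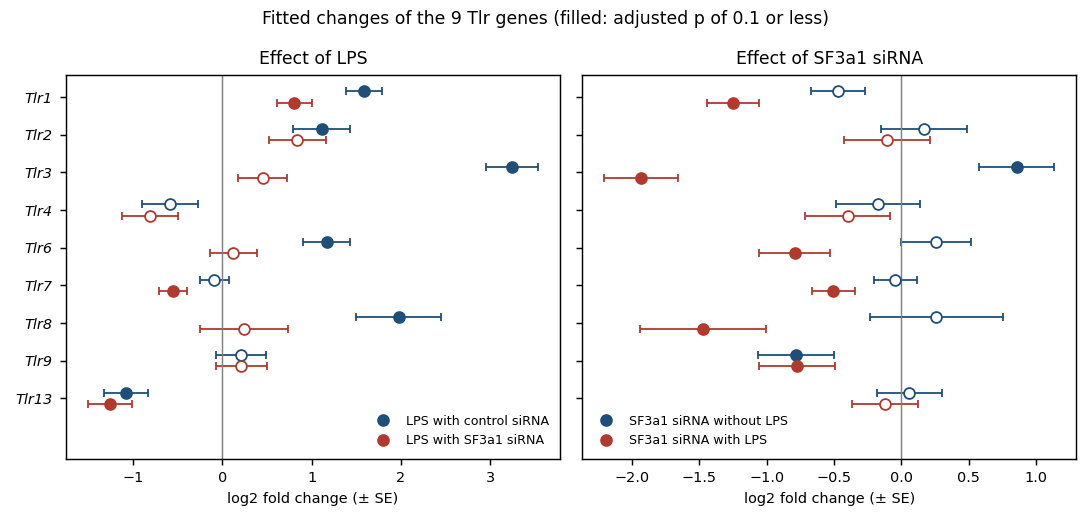
Fitted log2 fold changes of the 9 Tlr genes. The left panel shows the effect of LPS with control (blue) and SF3a1 (red) siRNA and the right panel the effect of SF3a1 siRNA without (blue) and with (red) LPS. Points are edgeR estimates, bars are their SE, and filled points have an adjusted p of 0.1 or less. Tlr3 lies at 3.24 for LPS with control siRNA and at 0.45 for LPS with SF3a1 siRNA, and no point for SF3a1 siRNA with LPS lies above 0.

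Within SF3a1 siRNA cells, LPS raised Tlr1 and lowered Tlr7 and Tlr13, and the other 6 genes did not pass, where 10.7% of all tested genes passed (6.6% higher, 4.06% lower). Tlr1 went from 7.98 ± 0.479 to 13.95 ± 2.55 CPM (log2 fold change 0.81 ± 0.20, edgeR adjusted p = 0.026, and 0.10 without replicate 2 of the SF3a1 siRNA group without LPS). Tlr13 had 30.8, 62.0 and 41.8 CPM without LPS and 22.1, 14.5 and 19.5 CPM with LPS (-1.26 ± 0.25, edgeR adjusted p = 0.0066). Its level in these cells with LPS was near that of control cells with LPS, 18.7 ± 3.85 against 20.3 ± 3.83 CPM.

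Tlr7 went from 122 ± 17.1 to 83.6 ± 10.99 CPM in SF3a1 siRNA cells (-0.55 ± 0.16, edgeR adjusted p = 0.056). That call was lost, with adjusted p between 0.10 and 0.21, without SF3a1 siRNA replicate 1 or 2 of either group and in a fit of these 6 libraries alone. Tlr2 went from 411, 552 and 540 CPM to 461, 1143 and 1083 CPM, higher in 3 of 3 replicates, and replicate 1 with LPS lay within the range of the libraries without LPS (0.84 ± 0.32, edgeR adjusted p = 0.16). Tlr4 went from 44.9 ± 10.4 to 25.5 ± 11.9 CPM, lower in 3 of 3 replicates (-0.81 ± 0.32, edgeR adjusted p = 0.17). With the replicate block 5 genes were called in place of 3, adding Tlr2 (0.76, edgeR adjusted p = 0.027) and Tlr4 (-0.88, adjusted p = 0.0025). Without replicate 1 of the SF3a1 siRNA LPS group Tlr2 (1.15, edgeR adjusted p = 0.017) and Tlr4 (-1.24, adjusted p = 0.029) were called as well, and without replicate 1 of the control LPS group Tlr2 was (0.84, edgeR adjusted p = 0.079).

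Tlr3 had 6.49, 10.3 and 9.15 CPM without LPS and 11.1, 9.37 and 14.9 CPM with LPS in SF3a1 siRNA cells, with overlapping groups (0.45 ± 0.27, edgeR adjusted p = 0.43). Tlr6 and Tlr8 differed by 0.12 ± 0.26 and 0.25 ± 0.49 in these cells.

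Whether the effect of SF3a1 siRNA differed between cells with and without LPS was tested directly, as the difference between the 2 log2 changes. Of the 9 genes Tlr3 passed, with a difference of -2.79 ± 0.39 (edgeR adjusted p = 0.0041), against 3.47% of all tested genes (1.54% higher, 1.94% lower). The Tlr3 effect was upward in 3 of 3 replicates without LPS and downward in 3 of 3 replicates with LPS. The differences for Tlr1, Tlr6 and Tlr8 were -0.78 ± 0.28, -1.05 ± 0.37 and -1.73 ± 0.68, with edgeR adjusted p of 0.21, 0.21 and 0.27. With the replicate block 4 genes passed in place of 1, with adjusted p of 0.072, 0.085 and 0.082 for Tlr1, Tlr6 and Tlr8. Without replicate 1 of the control group without LPS Tlr1 passed too (-1.03, edgeR adjusted p = 0.097). Tlr9 differed by 0.00 ± 0.39, its log2 change with SF3a1 siRNA being -0.78 both without and with LPS.

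SF3a1 acts in splicing, so the use of exon bins within each receptor gene was tested next. The bin counts covered 11 libraries, without replicate 3 of the control LPS group, whose exon bins were not analysed here, and summed to between 17269833 and 59095475 per library. Of the 63 Tlr bins, 38 were tested. The bins of Tlr6, Tlr8 and Tlr9 were too few or too low to test. Without LPS, 2 Tlr bins passed for SF3a1 siRNA, both in Tlr4 and both used more. Of all 153624 tested bins 0.626% passed (0.497% used more), and 6.16% of genes had a passing bin. Both Tlr4 bins passed the filter on low counts only through SF3a1 siRNA libraries. For that reason nothing is read from their number or direction, without or with LPS. With LPS 1 Tlr bin passed, again in Tlr4, where 0.492% of bins (0.381% used more) and 5.03% of genes passed. LPS itself changed no Tlr bin at an adjusted p of 0.1 or less with either siRNA, where 0.0801% of bins passed with control siRNA (0.0514% used more, 0.0286% less) and 0.0254% with SF3a1 siRNA (0.0208% used more, 0.00456% less). At an unadjusted p under 0.05, LPS with control siRNA gave 1 Tlr bin and LPS with SF3a1 siRNA gave 1 Tlr bin, and limma-voom and the DEXSeq model gave 0 bins past the adjusted threshold in both.

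The 2 Tlr4 bins are the last of the gene. Tlr4 lies on chromosome 4 of mm10 (GRCm38) at chr4:66827584-66930284 on the plus strand, and its 10 deposited bins were equal in number to the 10 bins rebuilt from GENCODE vM21. The full-length transcript Tlr4-201 has 3 exons and ends at 66842800, within bin 8. Bins 9 (chr4:66924366-66924488, 123 nt, coding) and 10 (chr4:66929018-66930284, 1267 nt, of which the first 85 code up to and including the stop) are exons of the transcript Tlr4-202 alone. They lie 81565 bases beyond the end of bin 8. Tlr4-202 shares the first 2 exons of Tlr4-201, skips the third exon (bins 6 to 8), which holds most of the coding sequence, and has a coding sequence of 154 codons against 835.

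The exon junctions that set the transcripts apart are given here from GENCODE vM21 transcripts on mm10, plus strand. Lower case is the last 30 bases of the shared second exon (bin 5, ending at 66834060) and capitals are the first 30 bases of the exon joined to it, bin 6 in Tlr4-201 (starting at 66839229, intron of 5168 bases) and bin 9 in Tlr4-202 (starting at 66924366, intron of 90305 bases). The deposited counts are per bin and do not say which reads cross a junction.
Tlr4-201 junction: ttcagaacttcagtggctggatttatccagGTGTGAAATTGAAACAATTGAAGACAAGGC
Tlr4-202 junction: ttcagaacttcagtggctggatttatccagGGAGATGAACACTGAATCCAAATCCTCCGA

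The coding bases that Tlr4-202 gains are the whole of bin 9 and the start of bin 10 (chr4:66929018-66929102), shown because they are the annotated coding sequence within the called bins. Whether the reads in these bins came from RNA joined to the other Tlr4 exons was not tested here, and bin counts alone do not show it. Capitals in the second mark the stop codon.
Tlr4-202 bin 9: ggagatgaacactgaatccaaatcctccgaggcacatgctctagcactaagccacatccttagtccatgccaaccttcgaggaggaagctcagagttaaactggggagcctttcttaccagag
Tlr4-202 bin 10 coding part: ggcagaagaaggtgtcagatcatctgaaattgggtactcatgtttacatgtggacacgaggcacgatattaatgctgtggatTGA

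Bin 10 had 5, 3 and 5 counts in control cells without LPS and 170, 64 and 65 counts in SF3a1 siRNA cells without LPS. With LPS it had 7 and 1 counts in the 2 control libraries and 163, 38 and 80 counts in SF3a1 siRNA cells. The lowest SF3a1 siRNA library was above the highest control library in both conditions. The log2 change in use relative to the gene was 5.17 without LPS (diffSpliceDGE in edgeR, adjusted p = 4.5e-09) and 4.96 with LPS (adjusted p = 6.9e-06). Because bin 10 passed the filter on low counts only through SF3a1 siRNA libraries, where it is high, nothing is concluded from these p-values.

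Bin 9 had 0, 1 and 0 counts in control cells and 27, 8 and 4 counts in SF3a1 siRNA cells without LPS (edgeR adjusted p = 0.0038). As a share of Tlr4 bin counts this is a ratio of 66.0 with a 95% interval of 11.2 to 2673, for counting error only and from 1 control count. With limma-voom the adjusted p was 0.16 and in edgeR without control replicate 1 it was 0.13. Without replicate 1 of either SF3a1 siRNA group bin 9 was too low to test, so this call rests on those libraries. Like bin 10, bin 9 passed the filter on low counts only through SF3a1 siRNA libraries, so nothing is concluded from its p-values. With LPS, bin 9 had 5 and 2 counts in control cells and 30, 6 and 10 counts in SF3a1 siRNA cells, a ratio of shares of 6.40 (2.87 to 16.8), which did not pass (edgeR adjusted p = 0.73).

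Together bins 9 and 10 made up 0.321 ± 0.118% of the Tlr4 bin counts in control cells without LPS (SD, n = 3), 0.828 ± 0.220% in control cells with LPS (n = 2), 11.3 ± 1.12% in SF3a1 siRNA cells without LPS (n = 3) and 16.01 ± 1.86% in SF3a1 siRNA cells with LPS (n = 3). The third exon of Tlr4-201 (bins 6 to 8) made up 87.6 ± 2.93%, 86.8 ± 2.47%, 70.4 ± 2.14% and 62.2 ± 0.930% in the same order. Its main part, bin 8, was used less with SF3a1 siRNA at an adjusted p of 0.1 or less only in the DEXSeq model fitted with DESeq2 (log2 change -0.81, adjusted p = 0.056 without LPS, and -1.28, adjusted p = 0.0014 with LPS). That model and these shares count bins 9 and 10 in the rest of the gene, where they are higher with SF3a1 siRNA. A lower share of bin 8 or of the third exon is thus not separate from bins 9 and 10. Nothing is concluded from it. Bin 3, in the first exon, made up 6.81 ± 3.14% of Tlr4 bin counts in control cells with LPS and 13.4 ± 5.07% in SF3a1 siRNA cells with LPS (log2 change in use 0.95, edgeR adjusted p = 1), and it passed with the replicate block (1.10, edgeR adjusted p = 0.069). Bins 8 and 3 were named after their values were seen. At the gene level, where all bins are counted together, Tlr4 did not pass in either SF3a1 comparison in the fit without the block, and with LPS it was called lower with the block (-0.43, edgeR adjusted p = 0.045), without the 2-run libraries (-0.56, edgeR adjusted p = 0.075) and without replicate 1 of the SF3a1 siRNA LPS group (-0.82, edgeR adjusted p = 0.062).

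**Figure D4:**
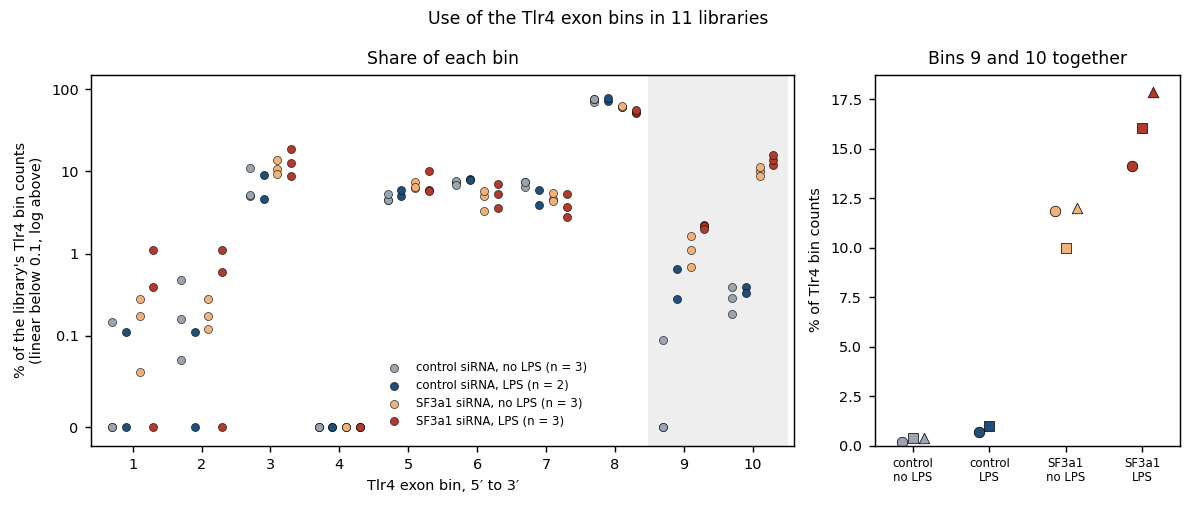
Use of the Tlr4 exon bins in 11 libraries. The left panel gives each bin's share of the library's Tlr4 bin counts, in percent, on an axis that is linear below 0.1 and logarithmic above, with bins 9 and 10 shaded. The right panel gives bins 9 and 10 together on a linear axis from 0. Points are libraries, colored by group. All 6 SF3a1 siRNA libraries lie above all 5 control libraries in the right panel, with group means of 11.3% and 16.01% against 0.321% and 0.828%. Both bins passed the filter on low counts only through SF3a1 siRNA libraries, so the separation is shown as a description.

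No bin of the other tested receptors passed. In Tlr7 the bin with the smallest p was bin 8 (chrX:167317680-167317798), a non-coding exon of the transcript Tlr7-206 inside an intron of the coding transcripts. It had 22, 8 and 14 counts in control cells without LPS and 1, 1 and 2 counts in SF3a1 siRNA cells, a log2 change in use of -2.63 (edgeR adjusted p = 0.26, and 0.091 with the replicate block). The smallest unadjusted p was 0.050 for Tlr3 (bin 7), 0.22 for Tlr1 (bin 2) and 0.85 for Tlr2 (bin 3), all for SF3a1 siRNA without LPS, and 0.46 for Tlr13 (bin 2), for LPS with SF3a1 siRNA. All 4 had an adjusted p of 1. Coordinates are not given for the bins of Tlr1, Tlr3 and Tlr6, whose number differed from that rebuilt from GENCODE vM21.

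Promoter windows from RefSeq (GRCm38.p6, 250 bases before to 50 bases after a gene's start) were matched by symbol for 7 of the 9 genes, in 9 windows, and are given because several members changed together with LPS. Tlr4 and Tlr7 had no entry. GAAA followed 2 bases later by GAAA again, the letters of an interferon-stimulated response element, was found on either strand in 3.44% of all 32851 windows and in 1 of the 9 Tlr windows, at 2 overlapping positions before one of the Tlr6 starts. GGG followed 2 bases later by TTTCC, a κB motif, was found in 1.63% of all windows and in 1 Tlr window, that of Tlr3. TGANTCA, an AP-1 motif, was found in 7.81% of all windows and in 1 Tlr window, that of Tlr9. GAGGAA, the core bound by the macrophage factor PU.1, was found in 28.3% of all windows and in the windows of Tlr1, Tlr8, Tlr9 and Tlr13. The matches of the first 3 motifs are shown with up to 8 bases on each side, in the direction of the gene, with the motif in capitals, where the Tlr6 matches read on the opposite strand and overlap by 4 bases.
Tlr3, chr8:45410582-45410591, minus strand: ttgtttctGGGAGTTTCCtgcttttg
Tlr6, chr5:64959273-64959282, minus strand: actattctTTTCTCTTTCactttctg
Tlr6, chr5:64959267-64959276, minus strand: cttttctcTTTCACTTTCtgtttgat
Tlr9, chr9:106222540-106222546, plus strand: atgatgtgTGACTCAttgtacca

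Across the 12 libraries the 5 receptors that rose with LPS in control cells were compared over log2 CPM. Pearson's r between Tlr1, Tlr3, Tlr6 and Tlr8 ran from 0.76 (Tlr3 and Tlr8) to 0.85 (Tlr6 and Tlr8). For Tlr2 it was 0.65 with Tlr1, 0.71 with Tlr3, 0.68 with Tlr6 and 0.33 with Tlr8. Genes called for the same response share that difference between the groups, which enters r. Tlr2 and Tlr4 ran against each other (r = -0.85), and Tlr4 and Tlr13 together (0.71). These are descriptions over 12 libraries in 4 groups, which share treatments and replicate numbers.

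The genes nearest in pattern were sought by the same r among 9303 genes (9304 for Tlr6 and Tlr8) that averaged 10 CPM or more. For Tlr1 they were Pik3r6 (r = 0.99), Irf1 and Ppp2r5a (both 0.97). Pik3r6 encodes a regulatory subunit of PI3 kinase gamma and Irf1 an interferon-regulated transcription factor. For Tlr3 they were Klf7, Etnk1 and Tap1 (each 0.95), Tap1 being a subunit of the antigen peptide transporter. For Tlr2 they were Vps37a, Cnot7 and Hivep3 (0.95, 0.94 and 0.93), and for Tlr4 Aldh3a2, BC005537 and Nr2c2 (0.95, 0.93 and 0.93). For Tlr6, Tlr7, Tlr8, Tlr9 and Tlr13 the highest r was 0.90 (Btg2), 0.88 (Dock11), 0.92 (Bcl2l11), 0.90 (Hnrnpul1) and 0.95 (Inpp5d).

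Proteins that fold the receptors and carry them to endosomes were set beside them. Of 13 such genes, all tested, 2 rose and 3 fell with LPS in control cells, 5 rose and 3 fell with SF3a1 siRNA without LPS, and 4 rose and 3 fell with SF3a1 siRNA and LPS (edgeR adjusted p of 0.1 or less). Of all tested genes 32.1%, 33.8% and 38.8% passed in these comparisons, in the same order. The median log2 change of the list under SF3a1 siRNA was 0.30 before and 0.20 after LPS, against -0.02 and -0.04 over all genes.

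Lrrc59, which takes part in TLR trafficking, rose with LPS in control cells from 424 ± 49.8 to 648 ± 105 CPM (edgeR adjusted p = 0.0066). Slc15a4, an endolysosomal histidine transporter needed for TLR7 and TLR9 signaling, fell with LPS from 67.6 ± 9.59 to 46.3 ± 4.67 CPM (edgeR adjusted p = 0.017), as did the TLR chaperones Cnpy3 (118 ± 21.1 to 78.8 ± 18.2 CPM, edgeR adjusted p = 0.059) and Cnpy4 (22.3 ± 2.69 to 15.2 ± 1.495 CPM, edgeR adjusted p = 0.018). Unc93b1, the chaperone that takes endosomal TLRs out of the endoplasmic reticulum, rose from 330.5 ± 52.9 to 501 ± 130 CPM (edgeR adjusted p = 0.072) and was named after its values were seen.

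SF3a1 siRNA raised Slc15a4 to 121 ± 4.86 CPM without LPS (log2 fold change 0.84, edgeR adjusted p = 0.0014) and to 109 ± 16.1 CPM with LPS (1.23, adjusted p = 0.00012). It lowered Ap3b1, a subunit of the AP-3 sorting adaptor, from 102 ± 3.37 to 52.5 ± 9.36 CPM without LPS (edgeR adjusted p = 0.0023) and from 118 ± 6.85 to 52.0 ± 12.9 CPM with LPS (adjusted p = 0.00055). Hsp90b1, the gp96 chaperone on which most TLRs depend for folding, fell from 1526 ± 151 to 997 ± 141 CPM without LPS (edgeR adjusted p = 0.0087). Tmed7 and Rab10, which act in TLR4 transport, rose in both SF3a1 comparisons, Tmed7 from 138 ± 14.4 to 192 ± 19.7 CPM without LPS (edgeR adjusted p = 0.017) and Rab10 from 169 ± 2.05 to 252 ± 26.8 CPM with LPS (adjusted p = 0.0027).

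Endolysosomal proteases and nucleases cleave the receptors or their nucleic acid ligands. Of 10 such genes 1 rose and 2 fell with LPS in control cells, 2 rose and 1 fell with SF3a1 siRNA without LPS, and 4 rose with SF3a1 siRNA and LPS, shares near those of all tested genes (32.1%, 33.8% and 38.8%). Dnase2a, which degrades DNA in lysosomes, fell with LPS from 133 ± 4.07 to 52.9 ± 5.56 CPM in control cells (edgeR adjusted p = 9.4e-06), and its response to SF3a1 siRNA differed with LPS by 0.98 on the log2 scale (adjusted p = 0.019). Lgmn, an asparaginyl endopeptidase, fell from 637 ± 64.3 to 324 ± 23.9 CPM with LPS (edgeR adjusted p = 0.00064), and Pld3, a single-stranded DNA exonuclease, rose from 93.4 ± 27.8 to 223 ± 109 CPM (adjusted p = 0.028). Ctsb, cathepsin B, rose with SF3a1 siRNA from 1717 ± 208 to 3410 ± 163 CPM without LPS (edgeR adjusted p = 0.00097). Ctsk, cathepsin K, went from 2.15 ± 2.03 to 11.4 ± 7.91 CPM without LPS (edgeR adjusted p = 0.052), with an SD close to the mean in control cells.

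Of the co-receptors, Cd14, which hands LPS to TLR4, rose with LPS from 543 ± 107 to 2768 ± 808 CPM in control cells and from 762 ± 181 to 1977 ± 383 CPM in SF3a1 siRNA cells (edgeR adjusted p = 2.1e-05 and 0.0036), the 1 of 5 tested co-receptors that passed for LPS, where 32.1% of all tested genes passed with control siRNA and 10.7% with SF3a1 siRNA. For SF3a1 siRNA its edgeR adjusted p was 0.16 without LPS and 0.15 with LPS. Of 12 adaptors and kinases 3 rose and 3 fell with SF3a1 siRNA both without and with LPS, and of 7 receptor-level inhibitors 2 rose without LPS and 2 rose and 2 fell with LPS, where 33.8% and 38.8% of all tested genes passed. Of 8 receptor genes of the interleukin-1 receptor family, 4 were tested. Il1rap, the shared subunit of the interleukin-1 receptor family, rose from 18.3 ± 3.88 to 53.0 ± 14.99 CPM with LPS (edgeR adjusted p = 0.00071) and to 48.3 ± 2.16 CPM with SF3a1 siRNA alone (0.0017). Its response to SF3a1 siRNA differed with LPS by -1.39 on the log2 scale (edgeR adjusted p = 0.074). Il1rl1, the interleukin-33 receptor, rose with SF3a1 siRNA without LPS from 43.6 ± 6.89 to 68.1 ± 17.6 CPM (0.045). Il18rap rose with LPS from 15.9 ± 2.82 to 26.6 ± 6.30 CPM (0.029) and was lower with SF3a1 siRNA and LPS at 16.9 ± 0.576 CPM (0.048).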

How the data were processed

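RAW264.7 libraries were made from poly(A) RNA with an Ion Total RNA-Seq kit and sequenced on an Ion Proton, and replicate 1 of each group combined 2 runs. The authors aligned reads to mm10 with GSNAP, kept uniquely mapped reads, and deposited whole-number counts per gene from HTSeq and counts per exon bin from the DEXSeq script. No deposited column was left unassigned (0 columns).

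Genes were tested with edgeR 4.0.16 (quasi-likelihood, TMM, filterByExpr, all 12 libraries, Benjamini-Hochberg over all 14983 genes, threshold 0.1) in R 4.3.3, and bins with diffSpliceDGE over 153624 bins of 11 libraries. Alternatives used DESeq2 1.42.0, limma 3.58.1, other scalings and filters, a replicate block, and libraries left out. The fits were tested on simulated data. Libraries sharing a replicate number had r of 0.143 to 0.600 between their deviations from the group means (18 pairs). The 36 other pairs had -0.523 to 0.345, but centring each group on its mean lowers r between unlike numbers. Every negative r involved a replicate 1 library. Replicate 2 against replicate 3 ran from 0.040 to 0.345, overlapping the same-number pairs of these replicates (0.143 to 0.458). These values set replicate 1 apart and do not show that replicates 2 and 3 are paired. The block was thus used only as an alternative. The members and lists were chosen with earlier results of these data known. All 9 members, called bins, the smallest-p bin of a gene without one, the 4 list members of smallest adjusted p per comparison and up to 3 genes nearest in pattern were named, of which 1 is not reported here. A count of 0 allows up to 3 counts, for counting error only. Bin positions came from GENCODE vM21 on mm10, used where its bin number matched the deposited one, and the promoters from RefSeq.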

Additional observations from a re-analysis of the deposited data

Results flagged for a closer look

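The effect of SF3a1 siRNA on Tlr3 differed between cells without and with LPS by -2.79 on the log2 scale in the test of the difference itself (edgeR adjusted p = 0.0041), with the siRNA effect upward in 3 of 3 replicates without LPS and downward in 3 of 3 with LPS. The difference lay between -2.99 and -2.64 when each of the 12 libraries was left out in turn.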

How the results depend on the processing

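The Tlr1, Tlr2, Tlr3, Tlr6, Tlr8 and Tlr13 calls for LPS with control siRNA, the Tlr1 and Tlr3 calls for SF3a1 siRNA with LPS, the Tlr13 call for LPS with SF3a1 siRNA and the Tlr3 difference held under every alternative run. Both Tlr4 bin 10 calls were made under each as well. However, the bin entered each of those tests through SF3a1 siRNA libraries alone, so nothing is concluded from this stability. The number of Tlr genes called for LPS with SF3a1 siRNA was 3, and it was 5 without an expression filter, 5 with the replicate block, 5 without the 2-run libraries, 2 in a fit of the 6 libraries compared, and 1 to 4 with a library left out. It was 4 with library totals alone, adding Tlr4 (-0.95, edgeR adjusted p = 0.065), and 4 with DESeq2, adding Tlr2 (0.82, DESeq2 adjusted p = 0.094). For the difference between the SF3a1 effects it was 1, with 4 under the replicate block, 4 without the 2-run libraries, 3 with DESeq2, and 1 to 2 with a library left out. For SF3a1 siRNA without LPS it was 2, and 0 to 3 with a library left out. For SF3a1 siRNA with LPS it was 6, with 4 to 7 under the alternatives, and for LPS with control siRNA it was 6, with 6 to 7. Without the 2-run libraries Tlr9 lost its call for SF3a1 siRNA without LPS (-0.54, edgeR adjusted p = 0.16), Tlr6 gained one there (0.65, edgeR adjusted p = 0.068), and Tlr4 gained one for SF3a1 siRNA with LPS (-0.56, edgeR adjusted p = 0.075). The block changed no Tlr gene call other than those given in the report.

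Among all genes, the replicate block gave 3115 calls against 1598 for LPS with SF3a1 siRNA and 1756 against 520 for the difference, and leaving out a library gave 1050 to 2005 and 273 to 711. The lowest counts came without SF3a1 siRNA replicate 1 or 2 without LPS (1050 and 1058) for the former, and without control replicate 2 or 3 (338 and 292) or SF3a1 siRNA replicate 2 or 3 (284 and 273) without LPS for the latter. The difference had 930 calls without an expression filter, 965 with DESeq2 and 1012 without the 2-run libraries. For exon bins the replicate block gave 285 calls against 123 (LPS, control siRNA), 105 against 39 (LPS, SF3a1 siRNA), 2113 against 961 (SF3a1 siRNA, no LPS) and 1793 against 756 (SF3a1 siRNA, LPS). The DEXSeq model gave 187, 1490 and 1275 for all but LPS with SF3a1 siRNA, in the same order, where limma-voom gave 21. The largest drops with a library left out were as follows. Bins called for SF3a1 siRNA with LPS came to 101 and 489 without control LPS replicate 1 or 2 and 461 and 443 without SF3a1 siRNA LPS replicate 2 or 3. Those for SF3a1 siRNA without LPS came to 531 and 527 without control replicate 2 or 3 and 531 and 617 without SF3a1 siRNA replicate 2 or 3. Those for LPS with control siRNA came to 75 and 70 without control replicate 2 or 3 without LPS and 49 without control LPS replicate 1. The number of Tlr bins called for SF3a1 siRNA was 2 without LPS (1 with limma-voom, 3 with the replicate block, 3 with the DEXSeq model, 1 to 2 with a library left out) and 1 with LPS (2 with the replicate block, 2 with the DEXSeq model). With the longest transcript as length, 6 places in the order of levels changed.

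Some log2 values that did not pass changed sign. For SF3a1 siRNA without LPS, Tlr7 was 0.018 with RLE and 0.018 with DESeq2, and Tlr13 was -0.0092 with library totals alone. For the difference, Tlr9 was -0.042 with RLE, -0.042 with DESeq2 and -0.17 without the 2-run libraries. For LPS with SF3a1 siRNA, Tlr6 was -0.016 with library totals and -0.019 without the 2-run libraries, and Tlr8 was -0.26 without them. For LPS with control siRNA, Tlr7 was 0.014 without them.

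With each library left out in turn, these ranges crossed 0. For LPS with control siRNA, Tlr7 ran from -0.22 to 0.018 and Tlr9 from -0.013 to 0.40. For SF3a1 siRNA without LPS, Tlr4 ran from -0.38 to 0.036, Tlr7 from -0.11 to 0.079, Tlr13 from -0.23 to 0.27 and Tlr2 bin 3 from -0.27 to 0.041. For SF3a1 siRNA with LPS, Tlr2 ran from -0.37 to 0.21 and Tlr13 from -0.26 to 0.048. For LPS with SF3a1 siRNA, Tlr6 ran from -0.071 to 0.23, Tlr8 from -0.055 to 0.48, Tlr9 from -0.15 to 0.41 and Tlr13 bin 2 from -0.030 to 2.03. For the difference, Tlr2 ran from -0.54 to 0.038, Tlr4 from -0.65 to 0.046, Tlr9 from -0.36 to 0.22 and Tlr13 from -0.39 to 0.12. The cause of these changes was not tested. Tlr8 and Tlr4 bin 9 rest on few counts, which limits their precision.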
